A study of Oryza sativa Japonica Group with 4 samples.

Results

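The heat acclimation genes described here are HSA32 (LOC_Os06g46900), MBF1c (LOC_Os06g39240) and the galactinol synthases GolS1 (LOC_Os03g20120) and GolS2 (LOC_Os07g48830). They were taken by gene ID, with every transcript model the deposited table lists for them. This gave 9 transcript models of 4 genes, out of 67393 models of 56797 gene IDs. HSA32 has 4 models, MBF1c 2, GolS1 1 and GolS2 2. The table describes them only by protein family, as a phosphosulfolactate synthase-related protein (HSA32), an endothelial differentiation-related factor (MBF1c) and glycosyl transferase 8 domain proteins (GolS1 and GolS2), and the gene names came with the list of IDs.

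Endosperm of the japonica cultivar Nipponbare was sequenced as 4 poly(A) RNA-seq libraries. The 2 high temperature libraries came from plants moved 5 days after pollination to a 35°C day and a 28°C night, and the 2 control libraries from plants moved at the same age to a 28°C day and a 22°C night, with 12 h of light and 12 h of dark in both. All plants had been raised at the control temperature, and the endosperm was sampled 5 days after the transfer, at the grain-filling stage. The labels call the tissue endosperm, while the study's methods describe the sampled material as fresh seeds. The labels do not say whether replicates came from separate plants, so the p-values measure the spread between these libraries, which may be technical.

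Plants exposed to heat make proteins that protect them in a later or longer exposure. HSA32 is a heat-induced protein that in Arabidopsis and rice is needed to keep acquired thermotolerance, in concert with the chaperone HSP101. MBF1c is a transcriptional coactivator that bridges DNA-binding factors and the transcription machinery, and in Arabidopsis it accumulates during heat and supports thermotolerance. Galactinol synthase joins UDP-galactose and myo-inositol into galactinol, the galactosyl donor for raffinose and related oligosaccharides, which accumulate in maturing seeds and in stressed leaves.

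The libraries held 6395533 to 11492692 reads. A pair of transcripts of unknown function, LOC_Os09g00999.1 and LOC_Os09g01000.1, took 8.51% to 35.2% of the reads of a library. Levels are therefore given as TMM-normalized CPM, the reads of a transcript over the scaled total of its library, where the scaling (TMM, factors of 0.756 to 1.32) centres the bulk of the transcripts between libraries. Replicates lay as far apart as the temperatures did. Over the 27358 tested transcripts, the root mean square difference of log2 CPM was 0.65 between the high temperature libraries and 0.69 between the controls, against 0.63 to 0.76 between a high temperature library and a control. The closest libraries were high temperature replicate 2 with control replicate 1 and high temperature replicate 1 with control replicate 2. The shares of the transcript pair split the libraries in the same way, and its part in these distances was not tested. Glutelin and prolamin transcripts, the markers of starchy endosperm, all had reads in every library (46 of 46) and summed to 266388 and 360186 TMM-normalized CPM at high temperature and to 282165 and 493515 in the controls. Of the 46, 40 had log2 fold changes below 0, with a median of -0.83, and 0 passed the adjusted test (edgeR), with 10 lower at an unadjusted p under 0.05, against 2.79% of all tested transcripts. For 26 of the 46 the high temperature libraries were both below the lower control, against 17.7% of all tested transcripts. Their part in the values of the 4 genes was not tested. Embryo and aleurone markers (oleosins, late embryogenesis abundant proteins and dehydrins, 45 of 49 with reads) summed to 1713 to 2894 CPM at high temperature and 1226 to 3949 CPM in the controls. Markers of green pericarp (chlorophyll a-b binding proteins and the small chain of Rubisco, 34 of 34 with reads) summed to 970.1 to 1915 CPM at high temperature and 1128 to 1354 CPM in the controls. In such bulk samples, fewer cells of a type and less RNA per cell cannot be told apart.

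Of the 9 transcript models, all of which passed the filter of at least 1 CPM in at least 2 libraries, 7 had both high temperature libraries above both controls. These belong to 3 of the 4 genes, HSA32, MBF1c and GolS1. The same held for 19.1% of all tested transcripts. In edgeR's quasi-likelihood test of the temperatures, 0 of the 9 passed 0.05 after Benjamini-Hochberg adjustment, as was the case for 0% of all tested transcripts. An unadjusted p-value under 0.05 with a higher level at high temperature was found for 6 of the 9, again of these 3 genes, and for 4.15% of all tested transcripts. Models of a gene share exons and thus reads, so the 9 are not 9 separate measurements.

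**Figure D1:**
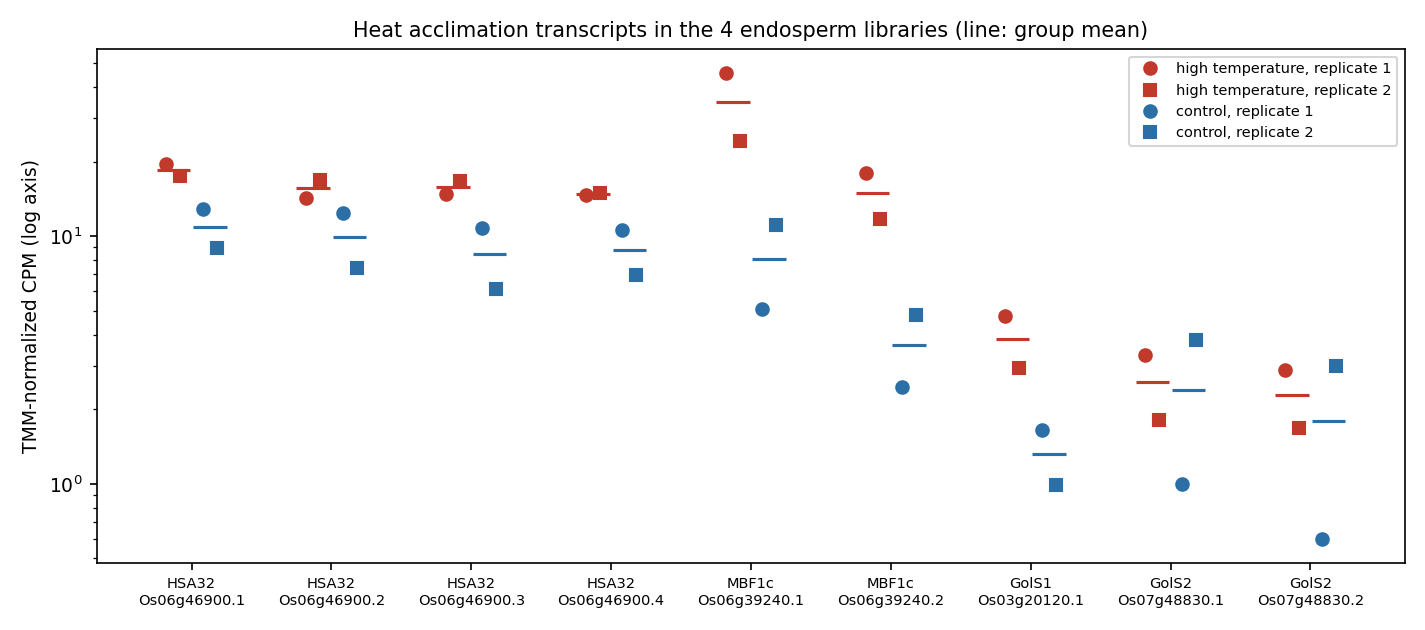
TMM-normalized CPM (log axis) of the 9 transcript models in each library, with high temperature in red and control in blue, circles for replicate 1, squares for replicate 2 and a line at each group mean. For HSA32, MBF1c and GolS1 the red points lie above the blue ones, with the widest gap for MBF1c, and for GolS2 the control points span from below to above the red ones.

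MBF1c, the coactivator, showed the largest difference of the 4 genes, with its mean level 4.43-fold higher at high temperature in the fit. LOC_Os06g39240.1 (840 bases) had 317 and 173 reads at high temperature, against 77 and 67 reads in the controls. After scaling these were 45.7 and 24.2 TMM-normalized CPM at high temperature, against 5.10 and 11.1 CPM in the controls. The lower high temperature library thus held more than the higher control, and the replicates within each temperature differed widely as well. The means were 34.9 ± 15.3 CPM at high temperature and 8.09 ± 4.24 CPM in the controls (SD, n = 2 each). The log2 fold change was 2.15 with a standard error of 0.46 and a 95% interval of 1.09 to 3.21. By unadjusted p it was number 103 of the 27358 tested transcripts, and by size of the increase number 110, and its adjusted p was 0.412 (edgeR).

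The shorter MBF1c model, LOC_Os06g39240.2 (656 bases), gave the same picture at a lower level. It had 18 and 11.7 TMM-normalized CPM at high temperature, against 2.45 and 4.80 CPM in the controls. Its log2 fold change was 2.10 (standard error 0.41, 95% interval 1.15 to 3.05, adjusted p = 0.366, edgeR), number 68 by unadjusted p. The reads of this model came to 39.4% and 48.6% of those of LOC_Os06g39240.1 at high temperature and to 48.1% and 43.3% in the controls, so this ratio of reads overlapped between temperatures. As the models can share reads, the ratio does not give the proportion in which they were made.

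The call on MBF1c depended on the test. DESeq2 gave adjusted p-values of 0.0165 for LOC_Os06g39240.1 and 0.0423 for LOC_Os06g39240.2, among the 0.194% of transcripts that it called higher under heat. When transcripts with few reads were kept in, edgeR gave adjusted p = 3.49e-06 and adjusted p = 2.99e-05 for these models, where 0.549% of transcripts were called higher, but in that unfiltered fit the adjusted p of both was 0.835 without control replicate 1 and 0.714 without control replicate 2. Unfiltered fits without high temperature replicate 1 gave log2 fold changes of 1.61 and 1.75, and those without high temperature replicate 2 gave 2.49 and 2.32. Each of these fits rests on 1 high temperature library. Under the filter neither of these left-out fits gave a call for MBF1c. There the log2 fold changes were 1.61 and 1.75 without high temperature replicate 1, and 2.51 and 2.35 without high temperature replicate 2. With the filter, leaving out control replicate 2, whose MBF1c level was the higher of the controls, gave log2 fold changes of 2.77 and 2.59 (adjusted p = 0.000687 and adjusted p = 0.00103, edgeR, with 1.04% of transcripts called higher), and the lone control is then assumed to vary like the high temperature libraries. Leaving out control replicate 1 gave 1.65 and 1.62, without a call.

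The other gene described as an endothelial differentiation-related factor, LOC_Os08g27850, belongs to the same family of bridging factors as MBF1c. Its model LOC_Os08g27850.1 had 233.7 and 185.7 TMM-normalized CPM at high temperature, against 157.4 and 177.9 CPM in the controls. The groups did not overlap but lay close to each other, and the log2 fold change was 0.32 (standard error 0.34, 95% interval -0.46 to 1.10, adjusted p = 0.906, edgeR). For LOC_Os08g27850.2 the groups overlapped, with 123.8 and 108.1 CPM at high temperature and 85.0 and 111.9 CPM in the controls. The difference between the changes of the 2 genes was not tested.

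HSA32 was higher in both high temperature libraries in all 4 of its models, with fitted levels 1.55-fold to 1.83-fold those of the controls. LOC_Os06g46900.1 (1377 bases), the model with the most reads, had 135 and 125 reads at high temperature, against 195 and 54 reads in the controls. Scaled for the libraries, this was 19.5 and 17.5 TMM-normalized CPM at high temperature, against 12.9 and 8.94 CPM in the controls. The high temperature libraries were close to each other, at 18.5 ± 1.43 CPM, and the controls stood at 10.9 ± 2.81 CPM (SD, n = 2 each). The log2 fold change was 0.74 (standard error 0.30, 95% interval 0.06 to 1.42, unadjusted p = 0.0370, adjusted p = 0.698, edgeR).

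The other HSA32 models, of 1489 to 1942 bases, held 68.5% to 96.8% of the reads of LOC_Os06g46900.1 in the 4 libraries. LOC_Os06g46900.3 had the largest difference, with 14.9 and 16.8 TMM-normalized CPM at high temperature and 10.8 and 6.12 CPM in the controls, and a log2 fold change of 0.87 (adjusted p = 0.686, edgeR). LOC_Os06g46900.4 had 14.7 and 14.9 CPM at high temperature and 10.6 and 6.95 CPM in the controls. LOC_Os06g46900.2 had 14.3 and 16.9 CPM at high temperature and 12.4 and 7.45 CPM in the controls, and its 95% interval, -0.12 to 1.38 on the log2 scale, included 0. In every model control replicate 1 lay nearer to the high temperature libraries than control replicate 2 did.

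The separation of HSA32 rested on the scaling between libraries. In log2 fold change, LOC_Os06g46900.1 was at 0.74 with TMM, 0.72 with upper quartile scaling, 0.73 with DESeq2 and 0.63 with column totals. When reads were divided by the column totals without TMM, a scaling chosen after the values were seen, LOC_Os06g46900.1 had 17.3 and 19.5 CPM at high temperature, against 17.0 and 6.73 in the controls, and the groups of its other 3 models overlapped. In that scaling 4 of the 9 models, those of MBF1c, GolS1 and LOC_Os06g46900.1, had both high temperature libraries above both controls, as did 12.6% of all tested transcripts. Leaving out 1 library moved the log2 fold change of LOC_Os06g46900.1 to between 0.51, without control replicate 2, and 1.04, without control replicate 1. That of LOC_Os06g46900.3 was 0.55 without control replicate 2 and 1.36 without control replicate 1, and leaving out control replicate 2 gave 0.33 for LOC_Os06g46900.2, which was 1.06 without control replicate 1, and 0.48 for LOC_Os06g46900.4.

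HSP101, the disaggregase that acts with HSA32 in acquired thermotolerance, is LOC_Os05g44340.1 in the table and was added after its values were seen. It had 96.1 and 47.9 TMM-normalized CPM at high temperature, against 20.1 and 36.1 CPM in the controls. Its log2 fold change was 1.37 (standard error 0.44, adjusted p = 0.599, edgeR), and the order of the 4 libraries was that of MBF1c, with high temperature replicate 1 highest and control replicate 1 lowest. This was not the order of HSA32, whose models were lowest in control replicate 2. Of the 2 transcripts described as chaperone protein clpB, LOC_Os02g08490.1 had 22.4 and 16.8 CPM at high temperature, against 11.1 and 12.4 CPM in the controls (log2 fold change 0.74, standard error 0.29, adjusted p = 0.686, edgeR). For LOC_Os03g31300.1 the groups overlapped, with 124.2 and 91.2 CPM at high temperature and 96.5 and 85.1 CPM in the controls.

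**Figure D2:**
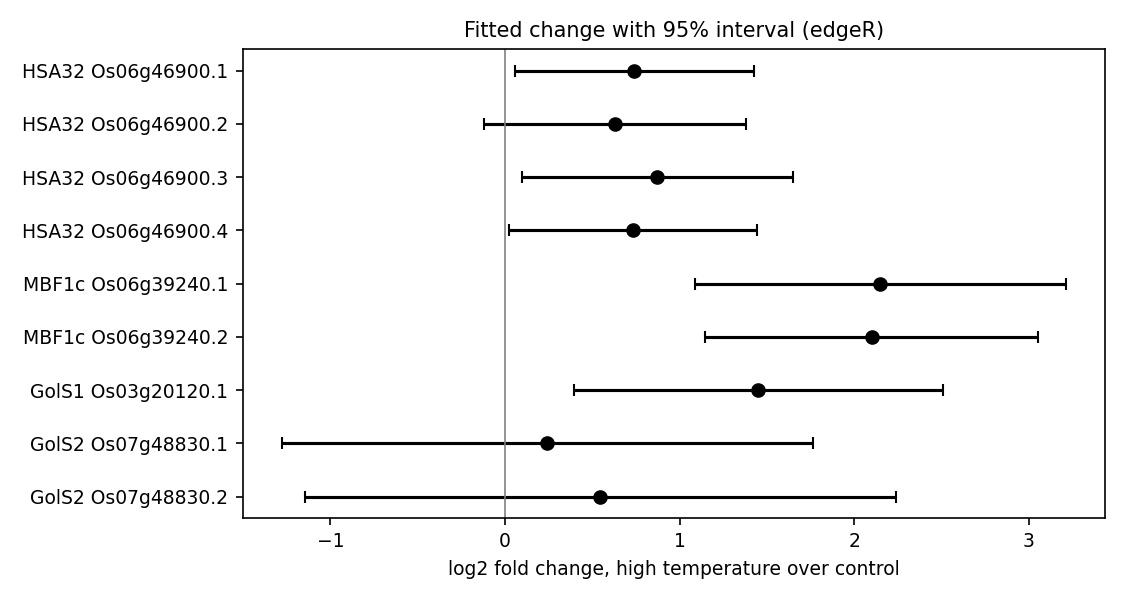
Log2 fold change, high temperature over control, of the 9 transcript models in the edgeR fit, with 95% intervals as bars. The intervals of both MBF1c models start above 1, those of 3 HSA32 models and GolS1 start above 0, and those of both GolS2 models run from below -1 to above 1.

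The galactinol synthases were the least expressed of the 4 genes and did not share an order of the libraries. GolS1 (LOC_Os03g20120.1, 1433 bases) had 33 and 21 reads at high temperature, against 25 and 6 reads in the controls. These counts correspond to 4.76 and 2.93 TMM-normalized CPM at high temperature, against 1.66 and 0.99 CPM in the controls, so the groups did not overlap. The means were 3.85 ± 1.29 CPM at high temperature and 1.32 ± 0.468 CPM in the controls (SD, n = 2 each). The log2 fold change was 1.45 (standard error 0.46, 95% interval 0.40 to 2.51, unadjusted p = 0.0131, adjusted p = 0.599, edgeR), a level 2.73-fold higher at high temperature. The 6 reads of control replicate 2 have an exact 95% Poisson interval of 2.20 to 13.1 reads, which covers counting error only. The log2 fold change was 1.21 without control replicate 2, 1.93 without control replicate 1 and 1.06 without high temperature replicate 1.

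GolS2 had no consistent order between the temperatures. LOC_Os07g48830.1 (1463 bases) had 23 and 13 reads at high temperature, against 15 and 23 reads in the controls. The scaled levels were 3.32 and 1.81 TMM-normalized CPM at high temperature, against 0.99 and 3.81 CPM in the controls, so that the controls held both the lowest and the highest value. Its log2 fold change was 0.24 (standard error 0.66, 95% interval -1.28 to 1.76, adjusted p = 0.966, edgeR), an interval that leaves room for a decrease as for an increase of more than 2-fold. LOC_Os07g48830.2 (1561 bases) had 2.88 and 1.68 CPM at high temperature, against 0.60 and 2.98 CPM in the controls (log2 fold change 0.55, standard error 0.73, adjusted p = 0.929, edgeR). Without control replicate 1 the log2 fold changes of the models were -0.57 and -0.39, and without control replicate 2 they were 1.35 and 1.91, so the direction was set by single libraries. Differences between the changes of the 4 genes, GolS1 and GolS2 included, were not tested.

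The summed embryo and aleurone markers ordered the libraries as GolS2 did. They stood at 2894 and 1713 TMM-normalized CPM in high temperature replicates 1 and 2, and at 1226 and 3949 CPM in control replicates 1 and 2, with the highest and the lowest value again in the controls. High temperature replicate 1 and control replicate 2, where GolS2 and these markers were higher, also held the larger shares of the abundant transcript pair, at 35.2% and 25.9% of reads. How many of all transcripts had the order of GolS2 was not counted. The part of the markers, or of this split of the libraries, in the GolS2 values was not tested. GolS1 was lowest in control replicate 2, the library where these markers and GolS2 were highest. The green pericarp markers were highest in high temperature replicate 1, at 1915 CPM, and lowest in high temperature replicate 2, at 970.1 CPM, an order found in no member gene.

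**Figure D3:**
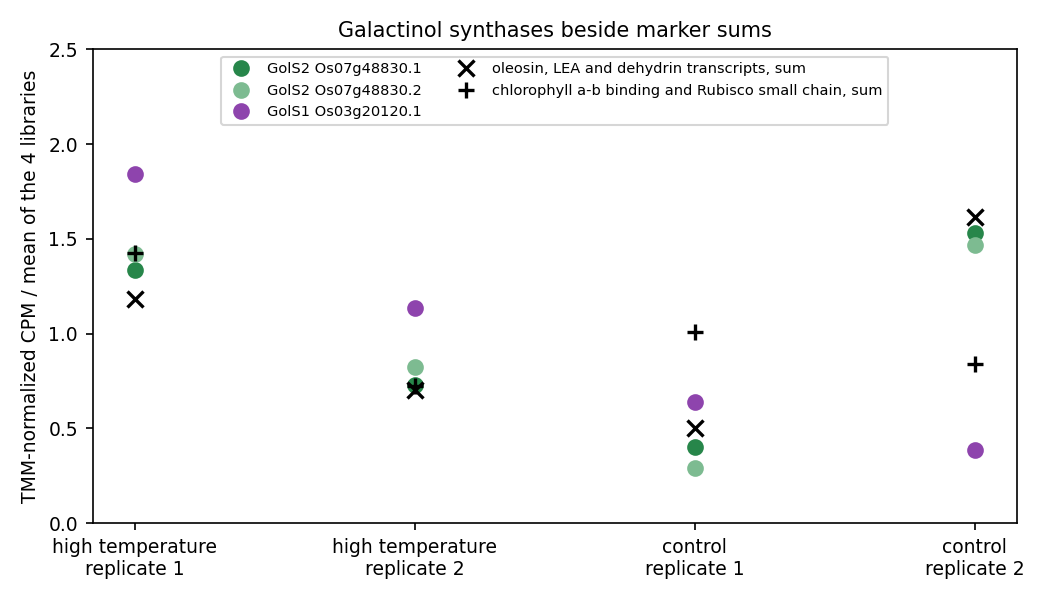
Level of GolS1, the 2 GolS2 models and 2 marker sums in each library, as TMM-normalized CPM divided by the mean of the 4 libraries. The GolS2 points and the cross of the embryo and aleurone markers are lowest in control replicate 1 and highest in control replicate 2, while GolS1 is highest in high temperature replicate 1 and lowest in control replicate 2.

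Set on a scale per length, the 4 genes can be compared in level. TMM-scaled RPKM, the TMM-normalized CPM divided by the transcript length in kilobases, was computed for the model of each gene with the most reads. At high temperature the order was MBF1c (41.6 ± 18.2), HSA32 (13.4 ± 1.04), GolS1 (2.68 ± 0.902) and GolS2 (1.75 ± 0.726) (SD, n = 2 each). In the controls it was MBF1c (9.64 ± 5.04), HSA32 (7.93 ± 2.04), GolS2 (1.64 ± 1.36) and GolS1 (0.924 ± 0.327) (SD, n = 2 each). MBF1c exceeded HSA32 by 3.85 and 2.27 times in the high temperature libraries, while in the controls the ratio was 0.647 and 2.03, so the pair had no fixed order there. GolS1 and GolS2 also did not differ beyond their spread in the controls, where their ratio was 1.70 and 0.266, and at high temperature it was 1.46 and 1.65. In TMM-normalized CPM, LOC_Os06g39240.1 of MBF1c had a higher mean than 63.3% of tested transcripts in the controls and than 91.9% at high temperature.

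Of the enzymes around galactinol synthase, those that cleave galactosyl sugars had fitted values above 0. Among those that make myo-inositol, the tested inositol-3-phosphate synthase models, all of 1 gene, had values below 0. The inositol monophosphatases went both ways, and none of these transcripts had a call. The list was set by words in the descriptions. It held no transcript described as a galactinol, raffinose or stachyose synthase, but 24 transcripts of 16 genes described as inositol-3-phosphate synthase, inositol monophosphatase, UDP-glucose 4-epimerase or alpha-galactosidase, of which 20 were tested. Their median log2 fold change was 0.09, with 12 higher and 8 lower at high temperature, against a median of 0.00 over all tested transcripts. None had an adjusted p under 0.05 (edgeR, lowest 0.598). An unadjusted p under 0.05 was found for 4 that were higher, against 4.15% of all tested transcripts, and for 1 that was lower, against 2.79%. The 4 are 3 models of the gene LOC_Os10g35110, which are not separate measurements, and 1 transcript of LOC_Os09g35800.

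Alpha-galactosidases, which release galactose from raffinose and other galactosides, were the group with the highest values. The log2 fold changes of all 8 models, of 4 genes, were above 0, from 0.04 to 1.37 with a median of 0.99, and for 4 of the 8 high temperature lay above without overlap, against 19.1% of all tested transcripts. These 4 were 3 models of LOC_Os10g35110 and 1 of LOC_Os07g26900. The median was 0.65 without control replicate 1, 1.39 without control replicate 2 and 0.59 in the unfiltered fit without high temperature replicate 1. As models of a gene share reads, it was also taken per gene, and was 0.77 with reads summed per gene and 0.80 with 1 model per gene. LOC_Os10g35110.2, the most abundant, had 103.7 and 101.5 TMM-normalized CPM at high temperature, against 37.2 and 59.3 CPM in the controls (log2 fold change 1.09, standard error 0.34, unadjusted p = 0.0120, adjusted p = 0.598, edgeR). The other models of this gene had log2 fold changes of 1.09 (LOC_Os10g35110.1) and 0.95 (LOC_Os10g35110.3), also with an unadjusted p under 0.05. LOC_Os07g26900.1 had the largest value of the group, with 4.33 and 5.03 CPM at high temperature against 2.78 and 0.33 CPM in the controls, the last of which rests on 2 reads.

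On the supply side, UDP-glucose 4-epimerase interconverts UDP-glucose and UDP-galactose. Its transcript LOC_Os09g35800.1 had 9.81 and 7.96 TMM-normalized CPM at high temperature, against 5.36 and 4.97 CPM in the controls (log2 fold change 0.77, standard error 0.30, unadjusted p = 0.0338, adjusted p = 0.692, edgeR). Inositol-3-phosphate synthase catalyses the committed step to myo-inositol, and all 4 tested models, of the gene LOC_Os03g09250, had both high temperature libraries below both controls, as had 17.7% of all tested transcripts. LOC_Os03g09250.1 had 76.2 and 75.0 CPM at high temperature, against 115.4 and 99.97 CPM in the controls (log2 fold change -0.51, standard error 0.30, unadjusted p = 0.129, adjusted p = 0.813, edgeR). Inositol monophosphatase, the enzyme that frees myo-inositol from its phosphate, had 7 tested models of 6 genes with log2 fold changes of -1.14 to 0.17. Of these, 3 lay above 0 and 4 below, with a median of -0.10. The lowest was LOC_Os07g37220.1, with 3.75 and 4.47 CPM at high temperature against 11.3 and 6.62 CPM in the controls (unadjusted p = 0.0135, adjusted p = 0.599, edgeR).

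**Figure D4:**
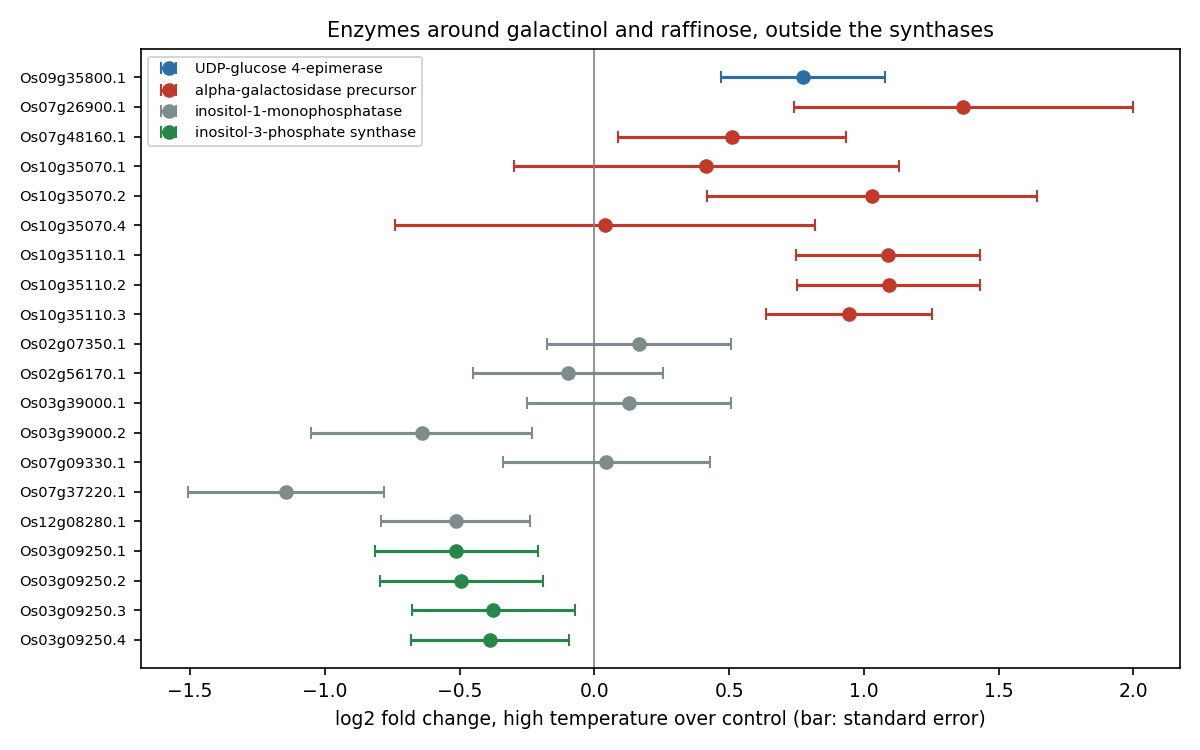
Log2 fold change, high temperature over control, with standard errors, of the 20 tested transcripts around galactinol and raffinose, coloured by description. The alpha-galactosidase and UDP-glucose 4-epimerase transcripts lie right of 0 and the 4 inositol-3-phosphate synthase models lie left of it.

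The transcripts whose pattern over the 4 libraries was most like that of each gene were found by the root mean square distance between log2 TMM-normalized CPM values centred on their own means. For MBF1c, 10 of 27356 transcripts of other genes came within a distance of 0.2, and the nearest was LOC_Os01g15270.1, described only as an expressed protein, at 0.09, with 323.2 and 163.9 CPM at high temperature and 41.1 and 87.1 CPM in the controls. It was followed by LOC_Os02g51970.1, a phosphate-induced protein 1 domain protein, at 0.09, and LOC_Os02g38000.1, a retrotransposon protein, at 0.16, both with under 4 CPM in every library. HSA32 had 757 transcripts of other genes within the same distance, led by LOC_Os03g16780.1 (an ankyrin repeat protein), LOC_Os09g32510.4 (a bHLH transcription factor) and LOC_Os06g40050.2 (a mitochondrial carrier). GolS1 had 51, led by LOC_Os02g55130.5 (a serine carboxypeptidase homologue), LOC_Os03g39760.1 (a cytochrome P450) and LOC_Os06g49390.1 (an NBS-LRR protein). GolS2 had 140, led by LOC_Os10g02240.1 (a peptide transporter), LOC_Os07g24000.1 (an AWPM-19-like membrane protein) and LOC_Os07g12080.1 (a protein of the seed storage and lipid transfer family). The distance depends on the size of the differences between libraries as well as on their order. The counts within 0.2 thus do not tell how common each order is. With 4 libraries such likeness is a description of these samples. Among the 4 genes themselves, HSA32 and GolS1 were the closest pair, at 0.36, and the MBF1c and HSA32 models with the most reads lay 0.92 apart.

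**Figure D5:**
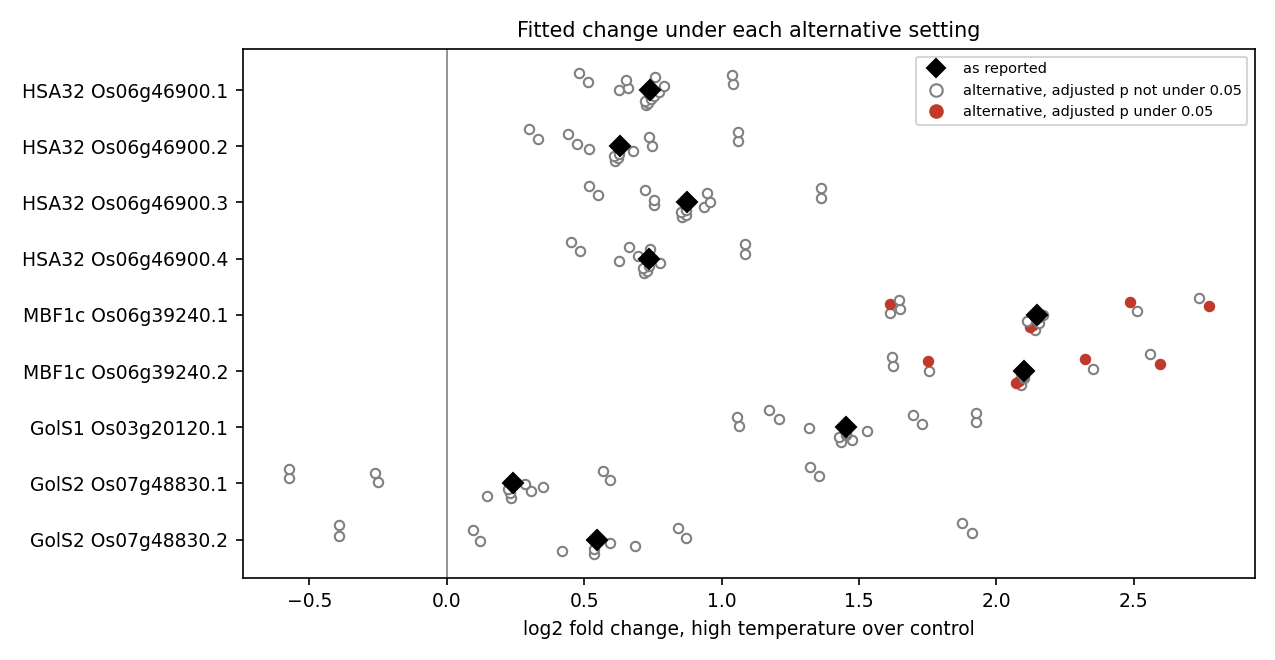
Log2 fold change, high temperature over control, of the 9 transcript models as reported (diamonds) and under each alternative setting other than the crossed replicate block (circles, filled where the adjusted p was under 0.05). Every circle of MBF1c, HSA32 and GolS1 lies right of 0, only MBF1c has filled circles, and the circles of GolS2 lie on both sides of 0.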

How the data were processed

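The deposited table gives whole-number counts for each transcript model, made by the authors from uniquely mapped reads over exons. The aligner, genome build and annotation release are not given in the sources used here. NA counts were read as 0. They stood for 26717 transcripts in each high temperature library and 29117 in control replicate 2, but for 0 in control replicate 1. Their part in the unfiltered fits was not tested. The 4 unnamed value columns beside the counts were not used, and levels per length were computed from the deposited counts and transcript lengths.

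Temperature was compared with edgeR 4.0.16 in R 4.3.3 (TMM, quasi-likelihood test, no replicate block, Benjamini-Hochberg adjustment over all tested transcripts), on transcripts that reached 1 CPM in 2 or more libraries. Standard errors were derived from each log2 fold change and its F statistic. The biological coefficient of variation was 0.273. Alternatives were DESeq2 1.42.0, upper quartile scaling, column totals, other filters, sums or 1 model per gene, replicate blocks and each library left out. The column totals, the crossed block and the unfiltered fits with a library left out were chosen after seeing the data.

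The text names the 4 genes with all their models, pathway and bridging factor transcripts, clpB transcripts, and the 3 transcripts of most similar pattern per gene (prior count 2). Members and lists were chosen with earlier results of these data known. The scripts were tested on simulated data with large changes planted in transcripts of higher counts. This does not cover changes as small as those of HSA32 or counts as low as those of the galactinol synthases. The table of gene symbols supplied matched 0 of these IDs, so no positions or sequences are given.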

Additional observations from a re-analysis of the deposited data

How the results depend on the processing

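The log2 fold changes of MBF1c, HSA32 and GolS1 kept their sign under every alternative run. DESeq2 gave 2.12 and 2.07 for LOC_Os06g39240.1 and LOC_Os06g39240.2 of MBF1c, and edgeR with transcripts of few reads kept in gave 2.13 and 2.08, all with adjusted p under 0.05. With 1 library left out under the filter, values ran from 1.61 to 2.77 and from 1.62 to 2.59 for MBF1c, from -0.57 to 1.35 for LOC_Os07g48830.1 and -0.39 to 1.91 for LOC_Os07g48830.2 of GolS2, and from -0.16 to 0.27 for the median of the raffinose pathway list. Without the filter, leaving out high temperature replicate 1 gave 1.61 and 1.75 for MBF1c, -0.26 for LOC_Os07g48830.1 and -0.14 for the list. Leaving out high temperature replicate 2 gave 2.49 and 2.32 for MBF1c, and leaving out control replicate 1 gave -0.58 and -0.39 for GolS2 and -0.13 for the list, which was -0.053 without control replicate 2.

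Over all transcripts edgeR called 0 (1900 at an unadjusted p under 0.05), against 53 higher and 5 lower with DESeq2, 244 and 121 without the filter, 31 and 2 with column totals, and 0 to 281 higher and 0 to 64 lower with 1 library left out under the filter. Without the filter, the calls were 118 and 142 when high temperature replicate 1 was left out, 109 and 20 when high temperature replicate 2 was, and 0 without either control. The cause of these differences was not tested. A replicate block called 0 (1015 at an unadjusted p under 0.05) and gave 2.15 for LOC_Os06g39240.1, at an adjusted p of 0.9999. Deviations of same-numbered libraries correlated at -0.36 over transcripts. A crossed replicate block called 552 higher (2.02% of those tested) and 276 lower. Among the higher were 3 of the 9 models, LOC_Os06g39240.1 and LOC_Os06g39240.2 of MBF1c and LOC_Os06g46900.3 of HSA32. The crossed pairing is not in the labels and was chosen after the data were seen, so its calls give no support for these models. With 2 libraries per temperature and 6 to 33 reads per library for the galactinol synthases, the number of libraries and the depth limit these values.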

Other observations

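Heat shock transcription factors, which drive heat-induced transcription in plants, were counted as a further list. Of 20 tested transcripts described with an HSF-type DNA-binding domain, from 13 genes, 19 had log2 fold changes above 0, with a median of 0.47 against 0.00 over all tested transcripts. For 11 of the 20 the high temperature libraries were both above the higher control, against 19.1% of all tested transcripts. None had an adjusted p under 0.05 (edgeR), 4 were higher and 1 lower at an unadjusted p under 0.05, against 4.15% and 2.79% of all tested transcripts, and the values ran from -1.52 to 2.92. With each library left out under the filter on low counts the median lay between 0.32 and 0.52, and in the unfiltered fit without control replicate 2 it was 0.93, against 0.49 in the unfiltered fit of all 4 libraries. It was lower, at 0.38, with reads summed per gene, and 0.28 both with 1 model per gene and with a filter of at least 5 CPM.

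The description that GolS1 and GolS2 carry, glycosyl transferase 8 domain, is shared by other sugar transferases. Among 20 tested transcripts of 18 other genes with this description, 15 had log2 fold changes above 0, with a median of 0.19 and a range of -0.72 to 2.40. The groups did not overlap for 10, with high temperature above in 7 and below in 3, against 19.1% and 17.7% of all tested transcripts. None had an adjusted p under 0.05 (edgeR), and 2 were higher and 0 lower at an unadjusted p under 0.05, where the shares of all tested transcripts were 4.15% and 2.79%.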
